A study of Mus musculus with 4 samples.

Results

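The cells described here are regulatory T cells (Tregs) of mouse ovarian tumours in which no transcript of Il1rl1, which encodes the interleukin 33 receptor ST2, and none of Areg, which encodes the growth factor amphiregulin, was counted. They are called ST2/Areg-negative Tregs below. The cells were chosen by their own UMI counts: a cell was taken when it had at least 1 unique molecular identifier (UMI, a tag that marks 1 captured RNA molecule) of Foxp3, at least 1 of Cd3d, Cd3e and Cd3g together, and none of Cd8a, Cd8b1, Il1rl1 or Areg. It also had to stay within small limits for UMIs of C1q, S100a8 and S100a9, keratin and cell division genes, which mark macrophages, neutrophils, tumour cells and cycling cells. The choice found 160 cells among 20607 cells kept in the series, 88 in tumours given IL-27 and 72 in control tumours. Absence of a UMI is not absence of the RNA, so the name states what was counted and not what the cells can make.

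Tumours were grown under the skin of the right flank of B6C3F1 mice, 6 to 8 weeks old, from OV2944-HM1 (HM1), a mouse ovarian cancer cell line. IL-27 mice received 100 ng of recombinant mouse IL-27 in the tumour on the day of implantation and every other day afterwards, and control mice received vehicle on the same days. On day 14 the tumours were digested, CD45+ cells were collected with magnetic beads, and 5′ single-cell RNA libraries were made. The labels list 2 entries per group, but 1 count matrix per group was analysed and no map ties its cells to the entries, so each group is 1 sample. There is therefore no replicate check and no test of a difference between the groups. Ratios carry exact 95% intervals of the counts, which cover counting error only and not the spread between mice.

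Tregs are CD4 T cells held in a suppressive state by the transcription factor FOXP3. They take up interleukin 2 through CD25, restrain antigen-presenting cells through CTLA-4, and can kill or silence other lymphocytes with granzyme B and interleukin 10. In tissues and tumours some Tregs carry ST2 and release amphiregulin, a programme tied to tissue repair and driven by GATA3, BATF and related factors, while others use T-bet and the chemokine receptor CXCR3. IL-27 signals through IL-27Rα and gp130 to JAK kinases and STAT3, and is known to act on T cells through MAF and interleukin 10. The title of the series names Treg fragility, a state in which Tregs keep FOXP3 yet take up features of interferon-γ-producing T cells.

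Both matrices were of similar size, with 9990 kept cells in the IL-27 matrix and 10617 in the control matrix. The ST2/Areg-negative Tregs had a median of 3674 UMIs and 1683.5 genes per cell in the IL-27 matrix and 4447.5 UMIs and 1873 genes in the control matrix, with 379502 UMIs in all in the IL-27 matrix and 414615 in the control matrix. The 2 matrices shared 133 barcodes, 1 of which belonged to an ST2/Areg-negative Treg of the IL-27 matrix. The doublet caller marked 0 cells in either matrix and had not worked, so doublets were not removed.

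These cells made up 0.881% of kept cells in the IL-27 matrix (95% exact Clopper-Pearson interval 0.707% to 1.08%) and 0.678% in the control matrix (0.531% to 0.853%). The ratio of these shares was 1.30, with an interval of 0.940 to 1.80 that holds 1. With the gate applied to cells thinned to 1000 UMIs, the shares were 1.08% in the IL-27 matrix and 0.763% in the control matrix, and the ratio was 1.41, with an interval of 1.01 to 1.96 that does not hold 1. Their share of T cells inside the same limits was 13.3% in the IL-27 matrix and 12.6% in the control matrix. Among Foxp3-positive cells they made up 33.8% (28.1% to 39.9%) in the IL-27 matrix and 39.3% (32.2% to 46.8%) in the control matrix. In each of these 3 measures on unthinned cells the intervals of the groups overlapped. The ST2/Areg-positive Tregs of the same gate were 1.72% of kept cells in the IL-27 matrix (172 cells) and 1.05% in the control matrix (111 cells).

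The border between the Treg groups moved with the depth of the cells. Of the ST2/Areg-positive Tregs, 26 in the IL-27 matrix and 24 in the control matrix sat just outside the border with exactly 1 UMI of Il1rl1 and Areg together. The median was 5 UMIs in the IL-27 matrix and 4 in the control matrix, and the cells just inside the border had 0. When every cell was thinned to 1000 UMIs before the gate was applied, 59.3% of Foxp3-positive cells were ST2/Areg-negative in the IL-27 matrix and 63.9% in the control matrix. Likewise, 58 of 169 ST2/Areg-positive Tregs of the IL-27 matrix (34.3%) and 50 of 111 of the control matrix (45.0%) kept no UMI of either gene when thinned. The border between the groups is thus not sharp. Background RNA was low: in cells of a neutrophil gate, which should lack these genes, Il1rl1 was found in 2.05% of cells of the IL-27 matrix and 1.62% of the control matrix, and Foxp3 in 0.256% of the IL-27 matrix and in 0 of 2718 cells of the control matrix, which allows up to 0.110%.

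Compared with conventional CD4 T cells of the same tumours (the same gate with Cd4 and no Foxp3, 120 cells in the IL-27 matrix and 49 in the control matrix), the ST2/Areg-negative Tregs carried a Treg programme beyond Foxp3. The Foxp3 border was not sharp either. Exactly 1 Foxp3 UMI was found in 28 of 88 ST2/Areg-negative Tregs of the IL-27 matrix and 13 of 72 of the control matrix. On thinned cells 48 of 85 of the IL-27 matrix and 38 of 71 of the control matrix kept a Foxp3 UMI. Conventional cells may thus hold Tregs without a counted Foxp3 UMI, and the effect of this on the ratios was not tested. Levels are CPM, the share of a gene scaled to a fixed total, of the UMIs summed over the cells of a group. Il2ra, which encodes CD25, was at 519 CPM in ST2/Areg-negative Tregs and 218 CPM in conventional cells of the IL-27 matrix, and at 755 CPM in ST2/Areg-negative Tregs and 110 CPM in conventional cells of the control matrix. Ctla4 was at 1186 CPM in ST2/Areg-negative Tregs and 333 CPM in conventional cells of the IL-27 matrix, and at 1761 CPM in ST2/Areg-negative Tregs and 776 CPM in conventional cells of the control matrix. Both receptors were higher in the Tregs of each matrix, with every interval above 1. Tnfrsf4, which encodes the costimulatory receptor OX40, was 1.88 times as high in ST2/Areg-negative Tregs of the IL-27 matrix (1.62 to 2.19) and 1.48 times in those of the control matrix (1.28 to 1.72). Ccr8, a chemokine receptor of tumour Tregs, was 2.63 times as high in the IL-27 matrix (1.75 to 4.0), at 182 CPM in ST2/Areg-negative Tregs and 69.1 CPM in conventional cells. In the control matrix it was at 299 CPM in ST2/Areg-negative Tregs and 311 CPM in conventional cells, so there this marker did not set the Tregs apart.

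**Figure D1:**
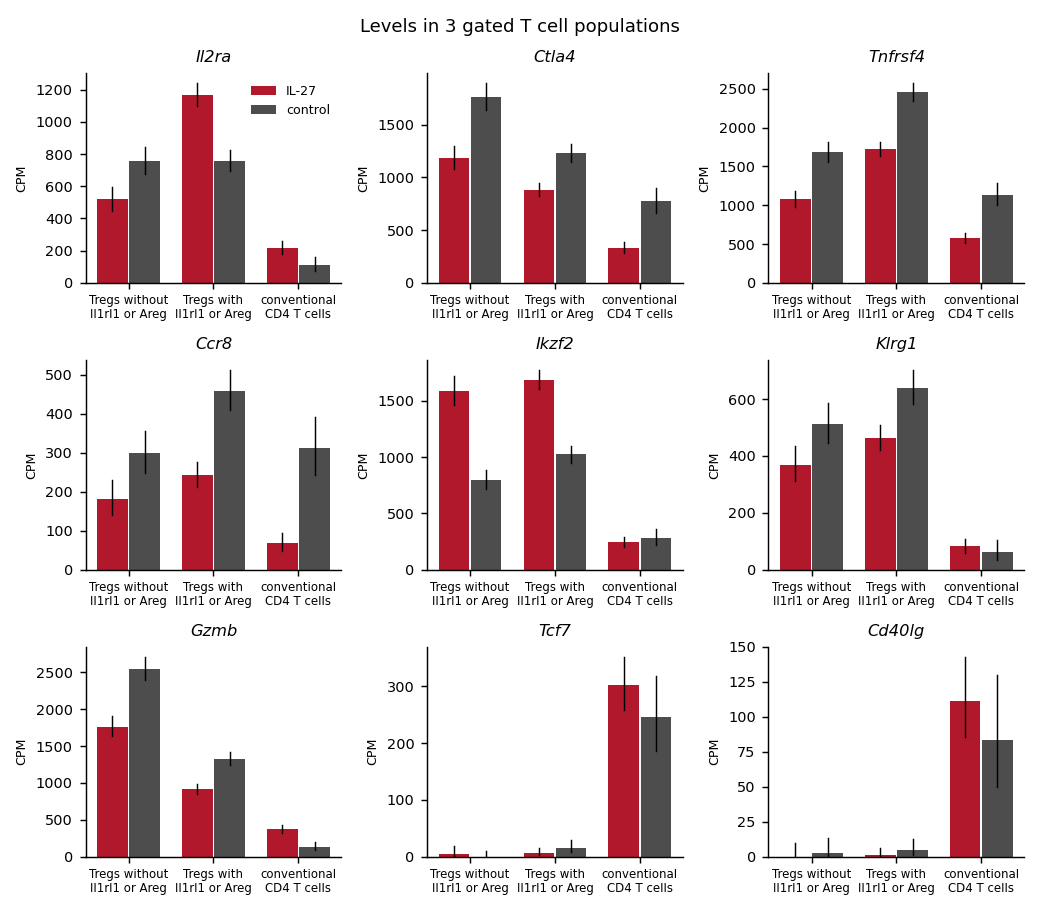
Level of 9 genes, in CPM of summed UMIs, in Tregs without Il1rl1 or Areg UMIs, Tregs with such UMIs and conventional CD4 T cells of the IL-27 matrix (red bars) and the control matrix (grey bars). Lines are exact 95% Poisson intervals of counting error. Ikzf2, Klrg1 and Gzmb stand higher in both Treg populations than in conventional cells, while Tcf7 and Cd40lg are near 0 in Tregs.

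The wider comparison with conventional cells covered 2029 genes, of which 8.62% were at least 1.5 times as high in ST2/Areg-negative Tregs in both matrices and 4.63% were at least 1.5 times lower in both. Of 18 genes of the Treg identity list with enough UMIs, 10 were higher in both and 0 were lower, and Foxp3, which the gate fixes, is 1 of the 10. Ikzf2, which encodes the Treg factor Helios, was at 1586 CPM in ST2/Areg-negative Tregs and 245 CPM in conventional cells of the IL-27 matrix, and at 796 CPM in ST2/Areg-negative Tregs and 285 CPM in conventional cells of the control matrix. Izumo1r, which encodes folate receptor 4, a surface marker of mouse Tregs, was 3.54 times as high in the IL-27 matrix and 3.85 times in the control matrix. Of 11 suppressive effector genes 7 were higher in both, among them Gzmb. Granzyme B RNA was at 1766 CPM in ST2/Areg-negative Tregs and 370 CPM in conventional cells of the IL-27 matrix, and at 2552 CPM in ST2/Areg-negative Tregs and 136 CPM in conventional cells of the control matrix. Klrg1, a receptor of terminally differentiated Tregs, was 4.52 times as high in the IL-27 matrix and 8.34 times in the control matrix. The TNF receptor gene Cd27 was 6.19 times as high in the IL-27 matrix and 3.40 times in the control matrix.

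Several genes of resting and helper T cells lay on the other side. Of 14 genes of the resting or central Treg list, 7 were lower in ST2/Areg-negative Tregs in both matrices and 2 were higher. Tcf7, which encodes TCF-1, a factor of naive and memory cells, had 2 UMIs in ST2/Areg-negative Tregs and 171 in conventional cells of the IL-27 matrix, and 0 UMIs in ST2/Areg-negative Tregs and 56 in conventional cells of the control matrix. The S1P receptor S1pr1, which guides T cells out of tissue, was at 15.8 CPM in ST2/Areg-negative Tregs and 193 CPM in conventional cells of the IL-27 matrix, and at 60.3 CPM in ST2/Areg-negative Tregs and 175 CPM in conventional cells of the control matrix. Tcf7 and S1pr1 were thus scarce in these Tregs, but not every gene that marks resting cells was. Ccr7 was found in 38.6% of ST2/Areg-negative Tregs and 36.7% of conventional cells of the IL-27 matrix. In the control matrix it was found in 23.6% of ST2/Areg-negative Tregs and 49.0% of conventional cells. The whole list summed to 3415 CPM in ST2/Areg-negative Tregs and 4254 CPM in conventional cells of the IL-27 matrix. In the control matrix these sums were 3432 CPM and 5359 CPM. Cd40lg, the helper ligand for CD40, had 0 UMIs in ST2/Areg-negative Tregs and 63 in conventional cells of the IL-27 matrix, and 1 UMI in ST2/Areg-negative Tregs and 19 in conventional cells of the control matrix. Of 10 helper markers, 6 were at 0 in these Tregs in each matrix, Il2, Ifng and Il21 among them. Of 18 tested genes of the glycolysis list 8 were higher in these Tregs in both matrices and 0 were lower. Pkm, the last enzyme of glycolysis, was at 964 CPM in ST2/Areg-negative Tregs and 518 CPM in conventional cells of the IL-27 matrix, and at 1343 CPM in ST2/Areg-negative Tregs and 666 CPM in conventional cells of the control matrix. Without the cells with most myeloid UMIs, described next, 6 of 17 tested glycolysis genes were higher in both matrices and 0 were lower.

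Markers of other cell types were present in the summed counts. The 14 macrophage and monocyte markers summed to 714 CPM in ST2/Areg-negative Tregs of the IL-27 matrix and 620 CPM in those of the control matrix, and 10 neutrophil markers to 1866 CPM in those of the IL-27 matrix and 1838 CPM in those of the control matrix. In ST2/Areg-positive Tregs the macrophage sum was 297 CPM in the IL-27 matrix and 914 CPM in the control matrix, and the neutrophil sum was 629 CPM in the IL-27 matrix and 2054 CPM in the control matrix. In conventional cells the macrophage sum was 261 CPM in the IL-27 matrix and 65.7 CPM in the control matrix, and the neutrophil sum was 569 CPM in the IL-27 matrix and 87.6 CPM in the control matrix. A few cells held most of these UMIs. In the ST2/Areg-negative Tregs the neutrophil markers had 708 UMIs in the IL-27 matrix and 762 in the control matrix, mostly of Il1b. Of the Il1b UMIs, 4 cells held 602 of 635 in the IL-27 matrix and 639 of 698 in the control matrix. Class II and dendritic cell markers summed to 1499 CPM in ST2/Areg-negative Tregs of the IL-27 matrix and 3328 CPM in those of the control matrix, where 1 cell held 922 of the 1327 class II UMIs. In conventional cells this sum was 4101 CPM in the IL-27 matrix and 504 CPM in the control matrix. The CD8 T cell list reached 2132 CPM in the IL-27 matrix and 3034 CPM in the control matrix, mostly through Gzmb and Nkg7. Cd8a and Cd8b1 were at 0 by the choice of cells, and Gzmk and Eomes were at 0 in both matrices. The 7 cells in the IL-27 matrix and 8 in the control matrix with the most myeloid UMIs were left out in an alternative chosen after seeing the data, with cells of the other populations left out by the same limits. Without them the macrophage sum in ST2/Areg-negative Tregs was 107 CPM in the IL-27 matrix and 102 CPM in the control matrix, and the neutrophil sum was 94.6 CPM in the IL-27 matrix and 49.5 CPM in the control matrix.

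Against the ST2/Areg-positive Tregs of the same tumours, the ST2/Areg-negative Tregs had more RNA of Cxcr3, Gzmb, Nkg7, Cd27 and Bcl2l11 and less of Gata3, Dgat2, Rel, Nfkb1 and Stat5a, in both matrices. Icos was at a similar level. Il1rl1 and Areg themselves differ by choice. Of 3285 genes tested in both matrices, 1.1% were at least 1.5 times as high in the ST2/Areg-negative Tregs in both, and 2.25% were at least 1.5 times lower in both. That made 36 higher and 74 lower genes, and the higher count was 13 without the cells with myeloid UMIs and 17 when the cell with most UMIs of each gene was left out. The ST2/Areg-negative Tregs were also the shallower cells, with a median of 3674 UMIs against 4218.5 in ST2/Areg-positive Tregs of the IL-27 matrix and 4447.5 against 5036 in those of the control matrix. On cells thinned to 1000 UMIs, where far fewer genes reach 50 UMIs, 4 genes were higher and 18 lower in both.

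Cxcr3, the receptor for the interferon-induced chemokines CXCL9 and CXCL10, lies at X:101731535-101734269 on the minus strand of GRCm38. It was at 81.7 CPM in ST2/Areg-negative Tregs and 19.97 CPM in ST2/Areg-positive Tregs of the IL-27 matrix, and at 125 CPM in ST2/Areg-negative Tregs and 26.0 CPM in ST2/Areg-positive Tregs of the control matrix. The ratio was 4.09 (2.22 to 7.77) in the IL-27 matrix and 4.82 (2.77 to 8.75) in the control matrix. This receptor thus stood apart from the ST2/Areg-positive Tregs in each matrix by more than counting error. With 49 UMIs over both populations of the IL-27 matrix, Cxcr3 fell just short of the 50 UMIs needed to enter the counts above. It was found in 17 of 88 ST2/Areg-negative Tregs and 12 of 172 ST2/Areg-positive Tregs in the IL-27 matrix, and in 21 of 72 ST2/Areg-negative Tregs and 14 of 111 ST2/Areg-positive Tregs in the control matrix. Conventional CD4 T cells carried it in 35.0% of cells of the IL-27 matrix and 38.8% of the control matrix, and cells of the neutrophil gate in 0.102% of the IL-27 matrix and 0.0736% of the control matrix.

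Of 16 tested genes of the suppressive effector list 1 was higher in both matrices and 0 were lower, and of 27 genes of the activated tumour Treg list likewise 1 was higher and 0 were lower. Gzmb, which encodes granzyme B, was at 1766 CPM in ST2/Areg-negative Tregs and 917 CPM in ST2/Areg-positive Tregs of the IL-27 matrix, and at 2552 CPM in ST2/Areg-negative Tregs and 1327 CPM in ST2/Areg-positive Tregs of the control matrix. Its ratio was 1.92 in each matrix, with an interval of 1.74 to 2.13 in the IL-27 matrix and 1.76 to 2.10 in the control matrix. Nkg7, a protein of cytotoxic granules, was 1.64 times as high in the IL-27 matrix (1.30 to 2.07) and 3.18 times in the control matrix (2.39 to 4.26). Cst7, which encodes the granule protease inhibitor cystatin F, was 1.56 times as high in the IL-27 matrix and 1.69 times in the control matrix. Without the top cell of each population the log2 ratio of Cst7 in the IL-27 matrix was 0.56, under the 1.5-fold line, and that of Nkg7 there was 0.51 without the 8% of cells scored highest for doublets. The chemokine gene Ccl5 was at 1062 CPM in ST2/Areg-negative Tregs and 643 CPM in ST2/Areg-positive Tregs of the IL-27 matrix, and at 1495 CPM in ST2/Areg-negative Tregs and 846 CPM in ST2/Areg-positive Tregs of the control matrix. A single cell held 21.8% of the Ccl5 UMIs of the ST2/Areg-negative Tregs in the IL-27 matrix and 30.5% in the control matrix. Without the top cell of each population the Ccl5 ratio was 1.43 in the IL-27 matrix and 1.55 in the control matrix. The transcription factor gene Tbx21, which encodes T-bet, had 7 UMIs in the ST2/Areg-negative Tregs of the IL-27 matrix and 6 in those of the control matrix, too few to rank the populations.

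Of 14 tested genes of the survival and death list 1 was higher in the ST2/Areg-negative Tregs of both matrices and 3 were lower, and of 20 chemokine receptor and homing genes 1 was higher and 1 lower. Without the cells with myeloid UMIs, 11 survival genes reached the count limit, with 0 higher and 1 lower, and of 20 homing genes 1 was higher and 3 lower. Bcl2l11, the higher survival gene, which encodes the pro-apoptotic protein BIM, was 2.24 times as high in the IL-27 matrix (1.59 to 3.17) and 2.26 times in the control matrix (1.35 to 3.83). Without the cells with myeloid UMIs its log2 ratios were 1.08 in the IL-27 matrix and 1.31 in the control matrix, but it no longer reached the count limit. Bcl2l11 was also found in 62.5% of cells of the neutrophil gate in the IL-27 matrix and 57.3% in the control matrix. Cd27 was at 329 CPM in ST2/Areg-negative Tregs and 195 CPM in ST2/Areg-positive Tregs of the IL-27 matrix, and at 253 CPM in ST2/Areg-negative Tregs and 124 CPM in ST2/Areg-positive Tregs of the control matrix. Gadd45b, a stress-induced gene and 1 of the lower survival genes, had a ratio of 0.404 in the IL-27 matrix and 0.540 in the control matrix. S1pr4, a lymphocyte S1P receptor and the higher homing gene, was 1.77 times as high in the IL-27 matrix and 2.27 times in the control matrix. The lower homing gene was Gpr183, a receptor for oxysterols, with a ratio of 0.452 in the IL-27 matrix and 0.513 in the control matrix. Gimap7, a GTPase of lymphocytes, was 2.25 times as high in the IL-27 matrix and 1.52 times in the control matrix, where without the cells with myeloid UMIs its log2 ratio was 0.55, under the 1.5-fold line. Il10, the suppressive cytokine, was at 50.1 CPM in ST2/Areg-negative Tregs and 24.4 CPM in ST2/Areg-positive Tregs of the IL-27 matrix, and at 53.1 CPM in ST2/Areg-negative Tregs and 18.8 CPM in ST2/Areg-positive Tregs of the control matrix. These Il10 levels rest on 9 ST2/Areg-negative cells in each matrix, and the ratio of 2.05 in the IL-27 matrix was lost, with a log2 ratio of -0.01, once the 8% of cells scored highest for doublets were left out, and was 0.52 on the log2 scale without the cells with myeloid UMIs. Ctla4 was 1.35 times as high in the IL-27 matrix and 1.44 times in the control matrix, under the 1.5-fold line, and Icos, its costimulatory relative, had ratios of 1.05 in the IL-27 matrix and 1.01 in the control matrix.

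The longer set of differences ran downward and held genes of the tissue-repair programme. Of 21 tissue-repair genes other than Il1rl1 and Areg, 5 were lower in both matrices and 0 were higher. Gata3, which encodes the factor that drives Il1rl1, was at 155 CPM in ST2/Areg-negative Tregs and 363 CPM in ST2/Areg-positive Tregs of the IL-27 matrix, and at 169 CPM in ST2/Areg-negative Tregs and 333 CPM in ST2/Areg-positive Tregs of the control matrix. Dgat2, an enzyme of triglyceride synthesis, was at 73.8 CPM in ST2/Areg-negative Tregs and 344 CPM in ST2/Areg-positive Tregs of the IL-27 matrix, and at 94.1 CPM in ST2/Areg-negative Tregs and 398 CPM in ST2/Areg-positive Tregs of the control matrix. Its ratio was 0.215 (0.140 to 0.316) in the IL-27 matrix and 0.236 (0.165 to 0.331) in the control matrix. Both genes were lower in the ST2/Areg-negative Tregs of each matrix by more than counting error. Penk, the precursor of enkephalin peptides that some tissue Tregs make, was at 490 CPM in ST2/Areg-negative Tregs and 741 CPM in ST2/Areg-positive Tregs of the IL-27 matrix, and at 548 CPM in ST2/Areg-negative Tregs and 1885 CPM in ST2/Areg-positive Tregs of the control matrix. Rora, a nuclear receptor of tissue Tregs, had a ratio of 0.538 in the IL-27 matrix and 0.622 in the control matrix, and Bhlhe40, a transcription factor of activated T cells, had 0.610 in the IL-27 matrix and 0.438 in the control matrix. Klrg1, which often accompanies ST2, had a ratio of 0.798 in the IL-27 matrix and 0.80 in the control matrix.

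Of 16 tested genes of the TNF receptor and signalling list 3 were lower in both matrices and 1 was higher. Rel, which encodes the NF-κB subunit c-Rel, was at 303 CPM in ST2/Areg-negative Tregs and 953 CPM in ST2/Areg-positive Tregs of the IL-27 matrix, and at 289 CPM in ST2/Areg-negative Tregs and 616 CPM in ST2/Areg-positive Tregs of the control matrix. Nfkb1, another subunit, had a ratio of 0.480 in the IL-27 matrix and 0.582 in the control matrix. Tnfrsf13b, which encodes the receptor TACI, had a ratio of 0.311 in the IL-27 matrix and 0.365 in the control matrix. Rel, Nfkb1 and Tnfrsf13b were the 3 lower genes and Cd27 the higher one. When the cells with myeloid UMIs were left out, 6 of 16 were lower and 1 was higher. Of 15 genes of the T cell receptor response list 3 were lower and 0 higher, namely Nr4a3, Dusp4 and Bhlhe40. Stat5a, which carries interleukin 2 signals, had a ratio of 0.442 in the IL-27 matrix and 0.489 in the control matrix, and the kinase gene Jak2 had 0.523 in the IL-27 matrix and 0.531 in the control matrix.

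Several genes that are usually grouped with type 1 responses did not follow Cxcr3 and Gzmb. Of 13 genes of the Th1 and interferon-γ list 2 were higher in both matrices, Nkg7 and Ccl5, and 3 were lower. Stat4, the mediator of interleukin 12 signals, had a ratio of 0.527 in the IL-27 matrix and 0.583 in the control matrix. Il18rap, a chain of the interleukin 18 receptor, had a ratio of 0.225 in the IL-27 matrix and 0.424 in the control matrix. Hopx, a transcription cofactor of effector T cells, had a ratio of 0.532 in the IL-27 matrix and 0.664 in the control matrix. Of 21 Treg identity genes 0 were past the fold in both matrices, and of 23 interferon-stimulated genes likewise 0. Tnfrsf4 had ratios of 0.625 in the IL-27 matrix and 0.685 in the control matrix, and Ccr8 had ratios of 0.748 in the IL-27 matrix and 0.652 in the control matrix. Il2ra was at 519 CPM in ST2/Areg-negative Tregs and 1168 CPM in ST2/Areg-positive Tregs of the IL-27 matrix. In the control matrix it was at 755 CPM in ST2/Areg-negative Tregs and 760 CPM in ST2/Areg-positive Tregs, but 1 ST2/Areg-negative cell held 112 of 313 Il2ra UMIs, and without the top cells the ratio was 0.669.

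**Figure D2:**
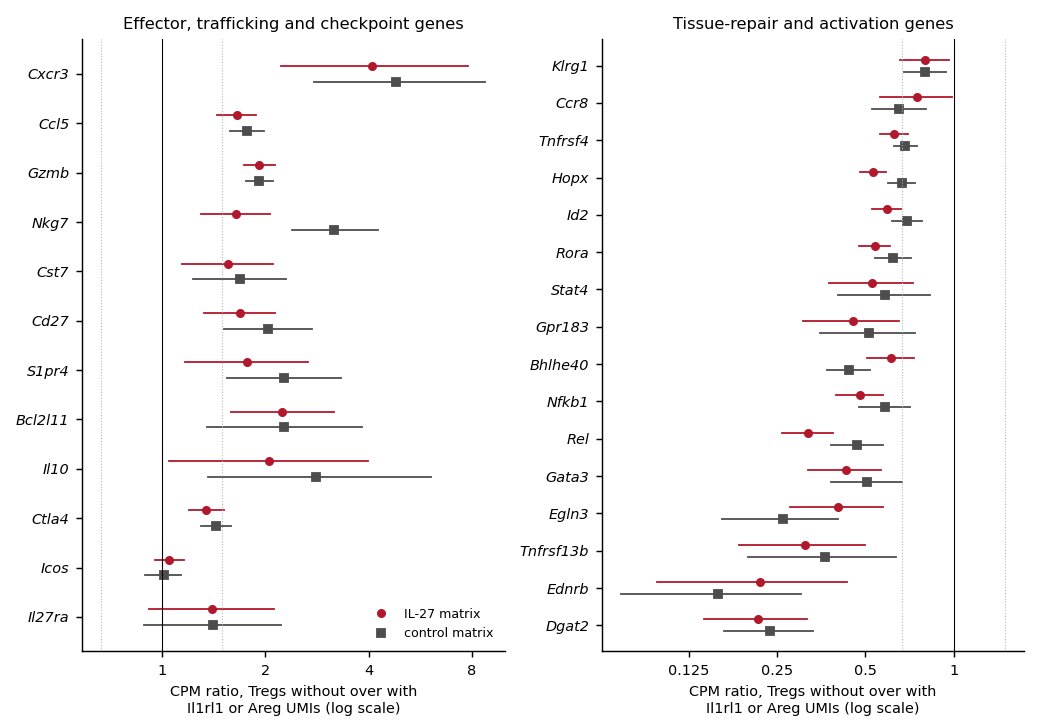
Ratio of CPM in Tregs without Il1rl1 or Areg UMIs over Tregs with such UMIs, on a log axis, in the IL-27 matrix (red circles) and the control matrix (grey squares). Lines are exact 95% intervals of counting error and dotted lines mark a ratio of 1.5 in either direction. Cxcr3, Gzmb and Nkg7 lie to the right of 1 in both matrices, and Dgat2, Ednrb and Rel lie to the left.

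Among the ST2/Areg-negative Tregs themselves, IL-27 tumours differed from control tumours in Maf, Ikzf2, Itgae, Nt5e and Bcl2l1, which were higher, and in Il10ra, Batf, Aldoa, Isg20 and Bst2, which were lower. Foxp3 was at 677 CPM in the IL-27 matrix and 656 CPM in the control matrix, and it was also used for the choice of cells. Of 2627 genes with at least 50 UMIs over both matrices, 11.3% were at least 1.5 times as high in the IL-27 matrix and 11% were at least 1.5 times lower. The median log2 ratio of all these genes was -0.01. The ratio also moved with transcript length, with a median log2 ratio of -0.21 for the 526 shortest genes and 0.27 for the 525 longest. Removing this trend turned the direction of 0 of the named genes that were past the fold.

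Maf, which encodes the transcription factor c-MAF at 8:115682942-115707794 on the minus strand of GRCm38, was at 1051 CPM in IL-27 tumours and 410 CPM in control tumours. Its ratio was 2.56 (2.14 to 3.09), and UMIs were found in 69 of 88 cells of IL-27 tumours and 55 of 72 cells of control tumours. In ST2/Areg-positive Tregs Maf was at 721 CPM in IL-27 tumours and 405 CPM in control tumours, a ratio of 1.78. In conventional CD4 T cells it was at 312 CPM in IL-27 tumours and 188 CPM in control tumours, a ratio of 1.66. In IL-27 tumours the ST2/Areg-negative Tregs had 1.46 times the Maf level of the ST2/Areg-positive ones (1.28 to 1.65), and in control tumours 1.01 times (0.832 to 1.23). Il10, a target of c-MAF, was at 50.1 CPM in IL-27 tumours and 53.1 CPM in control tumours, a ratio of 0.944 with an interval of 0.483 to 1.83.

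Of 21 tested genes of the Treg identity list 4 were higher in IL-27 tumours and 2 were lower, with a median log2 ratio of 0.05. Ikzf2 was at 1586 CPM in IL-27 tumours and 796 CPM in control tumours, a ratio of 1.99 (1.74 to 2.29), against 1.65 in ST2/Areg-positive Tregs and 0.859 in conventional cells. Nt5e, which encodes the adenosine-producing enzyme CD73, was at 137 CPM in IL-27 tumours and 62.7 CPM in control tumours. Itgb8, an integrin chain that releases active TGF-β, was at 134 CPM in IL-27 tumours and 72.4 CPM in control tumours. The remaining higher gene was Socs2, given below with its pathway, and the 2 lower ones were Ccr8 and Tnfrsf4. Itgae, which encodes the epithelial-binding integrin CD103, was at 200 CPM in IL-27 tumours and 67.5 CPM in control tumours, with 25% of its UMIs in 1 cell of the IL-27 matrix and a ratio of 2.71 without the top cells. The costimulatory receptor Cd28 was at 319 CPM in IL-27 tumours and 205 CPM in control tumours, but its direction was lost on counts thinned to 1000 UMIs per cell, and without the cells with myeloid UMIs its log2 ratio was 0.44. Icos, a related receptor picked out after its values were seen, was at 1560 CPM in IL-27 tumours and 1047 CPM in control tumours, just under the 1.5-fold line.

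Genes of IL-27 and cytokine signalling had a positive median, with few of them past the fold. The receptor gene Il27ra was at 103 CPM in IL-27 tumours and 91.7 CPM in control tumours, a ratio of 1.12 with an interval of 0.699 to 1.80. Of 15 genes of the IL-27 receptor and JAK-STAT list 3 were higher and 1 was lower, with a median log2 ratio of 0.35, beside -0.01 for all genes and -0.06 for the same 15 genes in ST2/Areg-positive Tregs. Socs2, an inhibitor of STAT5 signals, was at 235 CPM in IL-27 tumours and 123 CPM in control tumours. Socs1, an inhibitor of JAK kinases and of interferon signals, was at 108 CPM in IL-27 tumours and 55.5 CPM in control tumours, while in ST2/Areg-positive Tregs it was at 72.1 CPM in IL-27 tumours and 129 CPM in control tumours. The Socs1 values of ST2/Areg-negative Tregs come from 41 UMIs in IL-27 tumours and 23 in control tumours, and on thinned counts the direction turned. Socs3, an inhibitor of gp130 signals, was lower, at 60.6 CPM in IL-27 tumours and 133 CPM in control tumours. In ST2/Areg-positive Tregs it was at 61.0 CPM in IL-27 tumours and 198 CPM in control tumours. Without the 8% of cells scored highest for doublets the log2 ratio of Socs3 in ST2/Areg-negative Tregs was -0.55, under the 1.5-fold line.

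Bcl2l1, which encodes the anti-apoptotic protein BCL-XL, was at 171 CPM in IL-27 tumours and 79.6 CPM in control tumours, and Bcl2l11 at 179 CPM in IL-27 tumours and 91.7 CPM in control tumours. Xiap, an inhibitor of caspases, had a ratio of 3.16 (1.82 to 5.73). Bcl2a1d, an anti-apoptotic gene with near-identical copies among which reads can be split, was at 169 CPM in IL-27 tumours and 449 CPM in control tumours. Klf2, a transcription factor of resting T cells, was at 92.2 CPM in IL-27 tumours and 232 CPM in control tumours. It was the 1 lower gene among 10 tested genes of the resting or central Treg list. In that list 1 gene was higher, and the median log2 ratio was 0.01. Klf2 was also found in 46.6% of cells of the neutrophil gate in IL-27 tumours. Without the cells with myeloid UMIs its log2 ratio in ST2/Areg-negative Tregs was -1.25, beside -1.33 with them.

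Of 27 tested genes of the activated tumour Treg list, 7 were lower in IL-27 tumours and 2 were higher, with a median log2 ratio of -0.28. That median was no lower than in lists of other kinds. In the same cells housekeeping genes had a median of -0.33, with 1 of 17 lower. Dissociation and stress genes had a median of -0.30, with 3 of 17 lower. Batf, a factor that equips tumour and tissue Tregs, was at 55.3 CPM in IL-27 tumours and 142 CPM in control tumours. Ccr8 was at 182 CPM in IL-27 tumours and 299 CPM in control tumours, and after thinning it was found in 10.6% of 85 cells of IL-27 tumours and 25.4% of 71 cells of control tumours. Its log2 ratio was -0.56, under the 1.5-fold line, without the cells with myeloid UMIs. Tnfrsf4 was at 1078 CPM in IL-27 tumours and 1681 CPM in control tumours. For these 3 genes the conventional CD4 T cells of the same matrices differed in the same direction by a wider margin, with ratios of 0.306 for Batf, 0.222 for Ccr8 and 0.504 for Tnfrsf4. Ctla4 had a ratio of 0.673 (0.598 to 0.758), against 0.718 in ST2/Areg-positive Tregs and 0.430 in conventional cells. Il1r2, the interleukin 1 decoy receptor, was at 177 CPM in IL-27 tumours and 509 CPM in control tumours, whereas in conventional cells it was at 413 CPM in IL-27 tumours and 232 CPM in control tumours. A single ST2/Areg-negative cell held 59 of the 211 Il1r2 UMIs of control tumours, and without the top cells the log2 ratio was -1.31. It was found in 29.5% of ST2/Areg-negative Tregs of IL-27 tumours and 36.1% of those of control tumours, and on thinned cells in 12.9% of those of IL-27 tumours and 14.1% of those of control tumours. Neutrophils carry much of this RNA, with Il1r2 in 86.4% of cells of the neutrophil gate in IL-27 tumours and 91.0% in control tumours. Without the cells with myeloid UMIs the log2 ratio of the ST2/Areg-negative Tregs was -1.62, beside -1.53 with them.

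Il10ra, the ligand-binding chain of the interleukin 10 receptor, had the lowest ratio among the genes ranked over the whole table, at 34.3 CPM in IL-27 tumours and 140 CPM in control tumours. It was found in 8 of 88 cells of IL-27 tumours and 27 of 72 cells of control tumours. In ST2/Areg-positive Tregs it was at 78.8 CPM in IL-27 tumours and 165 CPM in control tumours. The ranking took genes with at least 50 UMIs in the higher group, found in at least 10% of its cells and with no cell holding over 20% of its UMIs. Other low ratios belonged to Ergic1, a protein of the secretory pathway, at 0.315, Emp3, a small membrane protein, at 0.350, Gpsm3, a G protein regulator, at 0.386, and Per1, a clock gene, at 0.383. At the other end were Bcl11b, a factor of T cell identity, at 2.47, and the chromatin genes Ankrd12, Pds5a and Chd3 at 2.59, 2.50 and 2.40.

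Genes used to describe fragile Tregs were few in UMIs or had intervals that hold 1. Ifng had 0 UMIs in 88 cells of IL-27 tumours and 0 in 72 cells of control tumours, which allows shares of cells with an Ifng UMI of up to 3.41% in IL-27 tumours and 4.17% in control tumours. The exact Clopper-Pearson upper bounds of these shares were 4.11% in IL-27 tumours and 4.99% in control tumours. Tbx21 had 7 UMIs in IL-27 tumours and 6 in control tumours. Cxcr3 was at 81.7 CPM in IL-27 tumours and 125 CPM in control tumours, and Pdcd1, which encodes the checkpoint receptor PD-1, at 287 CPM in IL-27 tumours and 326 CPM in control tumours. Both intervals hold 1, at 0.403 to 1.04 for Cxcr3 and 0.679 to 1.14 for Pdcd1. Nrp1, a receptor of thymic Tregs, had 5 UMIs in IL-27 tumours and 6 in control tumours. A difference in Ifng, Tbx21 or Nrp1 was thus not detectable at this depth.

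**Figure D3:**
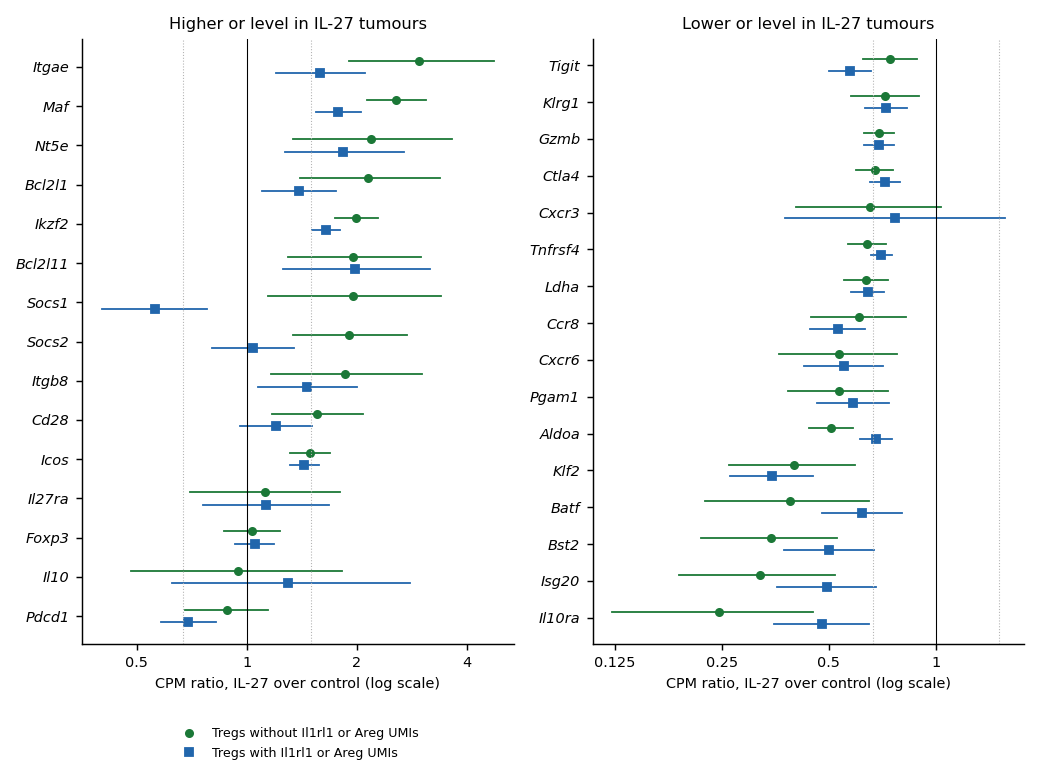
Ratio of CPM in the IL-27 matrix over the control matrix, on a log axis, for Tregs without Il1rl1 or Areg UMIs (green circles) and Tregs with such UMIs (blue squares). Lines are exact 95% intervals of counting error and dotted lines mark a ratio of 1.5 in either direction. Maf, Itgae and Ikzf2 lie to the right of 1 in both populations, Socs1 lies on opposite sides, and Il10ra, Isg20 and Bst2 lie to the left in both.

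Of 19 tested interferon-stimulated genes 3 were higher and 5 lower in ST2/Areg-negative Tregs of IL-27 tumours, with a median log2 ratio of -0.10, while the same 19 genes in ST2/Areg-positive Tregs had a median of -0.54 with 0 higher and 9 lower. Of all genes tested in ST2/Areg-positive Tregs, 8.5% were higher and 10% lower by that fold. In conventional CD4 T cells 15 genes of the interferon-stimulated list reached the count limit, with 0 higher and 11 lower. Their median was -1.08, beside -0.003 for all genes tested in conventional cells. Isg20, an antiviral exonuclease, was at 58.0 CPM in IL-27 tumours and 181 CPM in control tumours. Bst2, which encodes the antiviral membrane protein tetherin, was at 76.4 CPM in IL-27 tumours and 222 CPM in control tumours. Zbp1, a sensor of nucleic acid, was at 76.4 CPM in IL-27 tumours and 135 CPM in control tumours, a ratio of 0.566, and in conventional cells its ratio was 0.264. Without the 8% of cells scored highest for doublets its log2 ratio in ST2/Areg-negative Tregs was -0.48. Ifit1 and Oas1a, antiviral genes under the count limit, were picked after their values were seen and do not stand for the rest. Ifit1 had 1 UMI in IL-27 tumours and 24 in control tumours, and Oas1a had 3 UMIs in IL-27 tumours and 19 in control tumours. All 52 matched genes of the list summed to 7507 CPM in ST2/Areg-negative Tregs of IL-27 tumours and 9565.5 CPM in those of control tumours. Gbp7, a GTPase gene also named after its values were seen, was at 245 CPM in IL-27 tumours and 166 CPM in control tumours, under the 1.5-fold line.

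Genes of glycolysis had a negative median in IL-27 tumours, and so did housekeeping genes. Of 21 tested glycolysis and hypoxia genes 5 were lower and 1 was higher, with a median log2 ratio of -0.26, against -0.51 for the same genes in ST2/Areg-positive Tregs. The median was -0.46 over 19 genes in ST2/Areg-negative Tregs without the cells with myeloid UMIs. Aldoa, an enzyme of mid glycolysis, was at 740 CPM in IL-27 tumours and 1459 CPM in control tumours. Ldha, which makes lactate, was at 806 CPM in IL-27 tumours and 1266 CPM in control tumours, and Eno1, the enolase gene, at 682 CPM in IL-27 tumours and 1030 CPM in control tumours. Without the 8% of cells scored highest for doublets the log2 ratio of Eno1 was -0.52, under the 1.5-fold line. Of 34 oxidative phosphorylation genes 4 were lower and 0 higher, with a median log2 ratio of -0.22, and of 17 housekeeping genes 1 was lower, with a median of -0.33. The share of respiratory genes that were lower is near the 11% of all genes. With the length trend removed, the medians were -0.13 for glycolysis, -0.04 for oxidative phosphorylation and -0.26 for housekeeping genes. Dissociation and stress genes had a median of -0.30 over 17 genes in ST2/Areg-negative Tregs and -0.49 in ST2/Areg-positive Tregs.

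**Figure D4:**
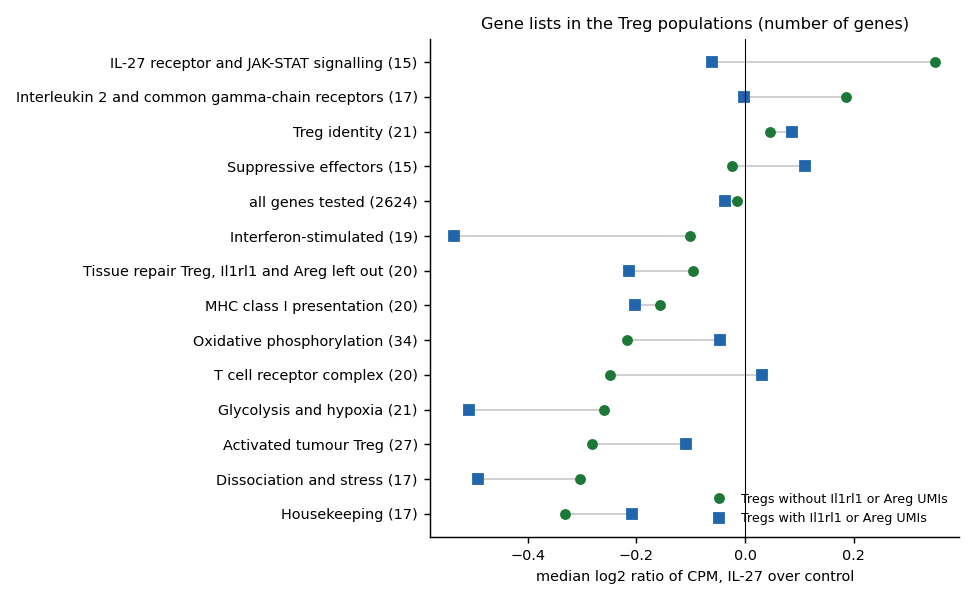
Median log2 ratio of CPM in the IL-27 matrix over the control matrix for 13 gene lists and for all genes tested, in Tregs without Il1rl1 or Areg UMIs (green circles) and Tregs with such UMIs (blue squares), over genes tested in both (number in brackets). The IL-27 receptor and JAK-STAT list stands at 0.35 and -0.06, and the interferon-stimulated list at -0.10 and -0.54.

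The ST2/Areg-negative Tregs were not uniform. A UMI of at least 1 of the resting genes Ccr7, Lef1, Tcf7 and S1pr1 was found in 52.3% of cells of IL-27 tumours (41.4% to 63.0%) and 51.4% of control tumours (39.3% to 63.4%). On thinned cells the shares were 28.2% in IL-27 tumours and 22.5% in control tumours. Cells with a resting gene had less Klf2, at ratios of 0.261 in IL-27 tumours and 0.50 in control tumours. Without the cell with most Klf2 UMIs on each side of the split these ratios were 0.343 in IL-27 tumours and 0.540 in control tumours. They also had less Pdcd1, at 194.2 CPM with and 450.8 CPM without a resting gene in IL-27 tumours and 267.8 CPM with and 436.7 CPM without one in control tumours. Without the top cells the Pdcd1 ratios were 0.435 (0.283 to 0.663) in IL-27 tumours and 0.692 (0.473 to 1.02) in control tumours. Cxcr3 had 25 UMIs in the 46 cells with a resting gene and 6 in the 42 without in IL-27 tumours, and 46 UMIs in the 37 cells with and 6 in the 35 without in control tumours. Its CPM ratio was 2.37 in IL-27 tumours, with an interval of 0.948 to 7.06 that holds 1, and 3.99 (1.70 to 11.4) in control tumours. Without the top cells the Cxcr3 ratios were 3.92 (1.17 to 20.5) in IL-27 tumours and 4.81 (1.73 to 18.6) in control tumours. Cells with a resting gene were deeper, with a median of 4733 UMIs against 3196.5 in cells without one in IL-27 tumours and 5891 against 3738 in control tumours, and the part of depth in these differences was not tested.

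Cells with Cxcr3, 17 in IL-27 tumours and 21 in control tumours, had less Klrg1 and Tnfrsf9 than the other ST2/Areg-negative Tregs. They were also deeper, with a median of 5133 UMIs against 3524 in IL-27 tumours and 5644 against 4188 in control tumours. The part of depth in these differences was not tested. Klrg1 was at 195.6 CPM in cells with Cxcr3 and 437.3 CPM in cells without it in IL-27 tumours, and at 354.3 CPM in cells with Cxcr3 and 599.9 CPM in cells without it in control tumours. Tnfrsf9, which encodes the costimulatory receptor 4-1BB, had ratios of 0.676 (0.587 to 0.778) in IL-27 tumours and 0.658 (0.583 to 0.741) in control tumours. Gata3 had ratios of 0.517 in IL-27 tumours, with an interval of 0.234 to 1.03, and 0.367 in control tumours, with an interval of 0.179 to 0.690. Gzmb was not higher in cells with Cxcr3, with ratios of 0.903 (0.756 to 1.07) in IL-27 tumours and 0.511 (0.441 to 0.592) in control tumours. Without the top cells the Gzmb ratio was 0.596 (0.472 to 0.748) in IL-27 tumours and 0.486 (0.409 to 0.574) in control tumours.

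Cells with Gzmb were the larger group, 57 in IL-27 tumours and 52 in control tumours. They were deeper than cells without it, with a median of 4228 UMIs against 3262 in IL-27 tumours and 4545 against 3858.5 in control tumours. Here too the part of depth was not tested. They had more Tnfrsf9, at ratios of 1.48 in IL-27 tumours and 2.04 in control tumours. They also had more Satb1, which encodes a chromatin organiser of T cells, at 2.19 (1.28 to 4.01) in IL-27 tumours and 2.04 (1.11 to 4.09) in control tumours. Ccr7, the lymph node homing receptor, was lower in them, at 0.729 (0.541 to 0.990) in IL-27 tumours and 0.537 (0.393 to 0.739) in control tumours. Klrg1 had ratios of 0.757 (0.529 to 1.09) in IL-27 tumours and 4.35 (2.48 to 8.31) in control tumours. The difference between the matrices was not tested.

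**Figure D5:**
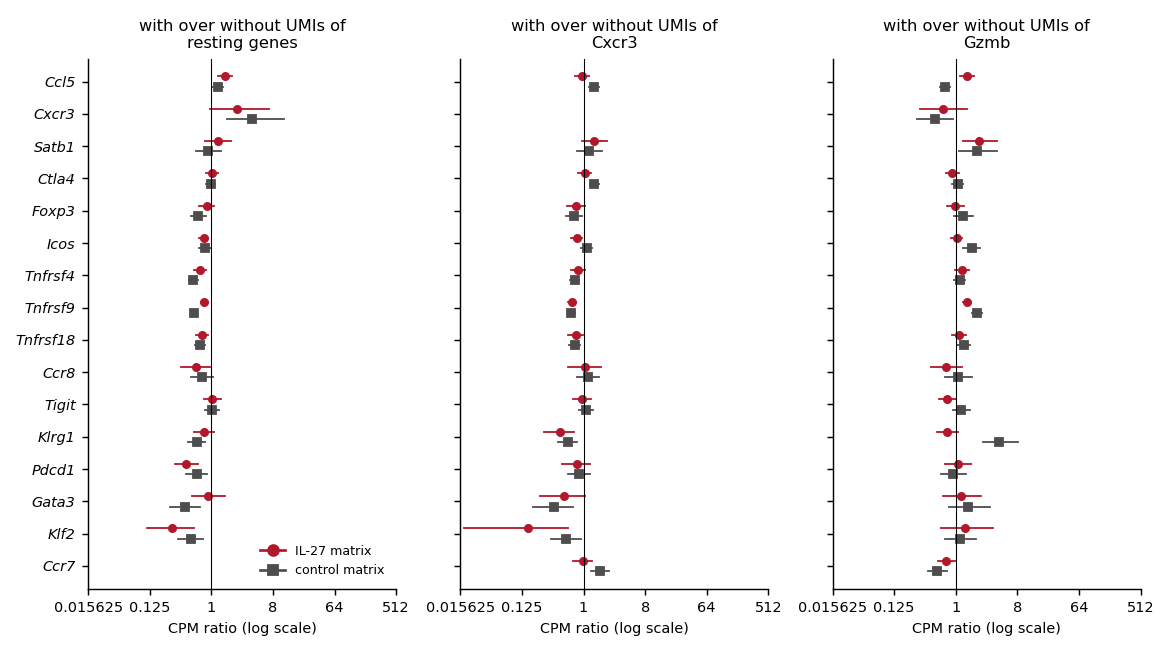
Ratio of CPM in Tregs without Il1rl1 or Areg UMIs that had UMIs of the resting genes, Cxcr3 or Gzmb over those that had none, on a log axis, in the IL-27 matrix (red circles) and the control matrix (grey squares). Lines are exact 95% intervals of counting error, and genes used for a split, or with under 10 UMIs, are not drawn. Klf2 and Pdcd1 lie to the left in cells with resting genes, Klrg1 to the left in cells with Cxcr3 and Tnfrsf9 to the right in cells with Gzmb.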

How the data were processed

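CD45+ cells of the tumours were measured by 5′ single-cell RNA sequencing. The authors deposited whole-number UMI counts, 1 filtered matrix per group, whose headers per the files name Cell Ranger 4.0.0. In the submitters' processing notes are also Seurat 3.2.0 and the mm10 genome build. The matrices hold 32285 gene IDs, of which 32158 matched the GENCODE vM21 annotation of GRCm38 used for coordinates and transcript lengths.

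From these counts, the cells kept were those in which no fewer than 200 genes and 500 UMIs were found and the 13 mitochondrial genes held less than 10% of all UMIs, which removed 193 cells of the IL-27 matrix and 167 of the control matrix. The gate allowed at most 1 UMI of C1qa, C1qb and C1qc, at most 4 of S100a8 and S100a9, at most 1 of Krt8 and Krt18 and at most 1 of Mki67 and Top2a. UMIs were summed over the cells of a population and divided by the population's total to give CPM. Ratios have exact conditional binomial intervals, levels exact Poisson intervals and shares exact Clopper-Pearson intervals, all at 95%. A gene was tested with at least 50 UMIs over both populations, and it counted as past the fold at 1.5 or more in either direction. Within matrices it had to pass in both. A count of 0 allows up to 3 counts. With 1 matrix per group no model across samples was run. Reads from near-identical gene copies may be split by the authors' counting.

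Genes were named when they were markers of the cells, when they were among up to 4 genes highest and 4 lowest in a list with intervals off 1, or when they were among the 10 highest and 10 lowest of all genes with at least 50 UMIs, found in at least 10% of cells and with no cell holding over 20%. A few genes of the question (Ifng, Tbx21, Cxcr3, Pdcd1, Il10, Il27ra, Nrp1, Ikzf2) were named whatever their values. Icos, Ifit1, Oas1a, Gbp7 and the genes set beside the splits of the cells by Cxcr3 and Gzmb were chosen after their values were seen. Of the symbols in 34 lists 2 had no match. The members and lists were chosen with earlier results of these data known, so the lists lend no independent support. Scrublet in scanpy 1.11.5, run at an expected 8% doublets, made no calls, and its scores served as an alternative. Leaving out cells with myeloid UMIs, or the cell with most UMIs of a gene in each population or on each side of a split, was chosen after seeing the data. Thinning drew 1000 UMIs per cell, leaving out shallower cells. The ratio calculation was tested on simulated data. Python 3.11.15 was used with numpy 2.4.6, scipy 1.17.1, pandas 2.3.3, statsmodels 0.14.6 and matplotlib 3.10.9. The split by resting genes leaves out 1 gene of the planned set, which is not reported here. The V(D)J libraries were not analysed here.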

Additional observations from a re-analysis of the deposited data

Results flagged for a closer look

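For 7 genes the ratio of IL-27 tumours over control tumours ran in opposite directions, by at least 1.5-fold each and with both intervals off 1, in ST2/Areg-negative and ST2/Areg-positive Tregs. These differences between the Treg groups were not tested, since each rests on 1 matrix per tumour group. Socs1, the inhibitor of JAK kinases, had log2 ratios of 0.96 in ST2/Areg-negative Tregs and -0.84 in ST2/Areg-positive Tregs. Without the cells with myeloid UMIs they were 0.86 in ST2/Areg-negative Tregs and -0.85 in ST2/Areg-positive Tregs, and without the top cell of each population 1.09 in ST2/Areg-negative Tregs and -0.84 in ST2/Areg-positive Tregs. On thinned cells the log2 ratio of Socs1 in ST2/Areg-negative Tregs turned to -0.26. Of the 7 genes, Socs1 and Gzma kept opposite directions by at least 1.5-fold without the cells with myeloid UMIs and without the top cells, both on few UMIs. Gzma, a marker in the natural killer cell list, had log2 ratios of -3.62 in ST2/Areg-negative Tregs and 3.68 in ST2/Areg-positive Tregs. Without the top cells they were -1.19 in ST2/Areg-negative Tregs and 4.47 in ST2/Areg-positive Tregs, so single cells carried much of the Gzma difference in ST2/Areg-negative Tregs. All 8 markers of that list together had 10 UMIs in ST2/Areg-negative Tregs of IL-27 tumours and 121 in those of control tumours. Cdkn1a, which encodes the cell cycle inhibitor p21, had log2 ratios of 0.74 in ST2/Areg-negative Tregs and -0.74 in ST2/Areg-positive Tregs. Without the cells with myeloid UMIs they were 0.47 in ST2/Areg-negative Tregs and -0.22 in ST2/Areg-positive Tregs, both under the 1.5-fold line.

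The other 4 genes are also known from myeloid cells, and none kept its opposite directions without the cells with myeloid UMIs. Ptgs2, which encodes the prostaglandin enzyme COX-2, had log2 ratios of 1.49 in ST2/Areg-negative Tregs and -1.80 in ST2/Areg-positive Tregs, and without those cells -0.89 in ST2/Areg-negative Tregs and 0.46 in ST2/Areg-positive Tregs. Thbs1, which encodes thrombospondin 1, had 1.27 in ST2/Areg-negative Tregs and -1.61 in ST2/Areg-positive Tregs, and without those cells -0.30 in ST2/Areg-negative Tregs and 0.84 in ST2/Areg-positive Tregs. Mmp9, a matrix protease gene, had 2.03 in ST2/Areg-negative Tregs and -0.82 in ST2/Areg-positive Tregs, and without those cells 0.81 in ST2/Areg-negative Tregs and 0.31 in ST2/Areg-positive Tregs. Spp1, a marker in the macrophage list, had 2.08 in ST2/Areg-negative Tregs and -2.18 in ST2/Areg-positive Tregs, and without those cells -0.37 in ST2/Areg-negative Tregs and -1.07 in ST2/Areg-positive Tregs. A single ST2/Areg-negative cell held 47 of the 54 Spp1 UMIs of IL-27 tumours. Without those cells Ptgs2 and Thbs1 thus took reversed signs in both Treg groups, and Mmp9 and Spp1 the same sign in both.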

How the results depend on the processing

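No paired analysis was possible because each group is 1 matrix. Shares and counts stayed within counting error or 1.5 times of the reported ones without a mitochondrial limit, without barcodes shared by the matrices, without the 8% of cells scored highest for doublets, after division by the median ratio or by the ratio in conventional cells, with the length trend removed and with CPM averaged over cells. The share of kept cells in the IL-27 matrix was 0.601% with at least 2 Foxp3 UMIs and 0.571% with no UMIs of other lineages. In cells of at least 2000 UMIs it was 1.55% in the IL-27 matrix and 1.01% in the control matrix. With the gate applied after thinning, the share of Foxp3-positive cells was 59.3% in the IL-27 matrix and 63.9% in the control matrix, and 31.4% of the chosen cells had a resting gene in the IL-27 matrix and 24.6% in the control matrix. With the chosen cells thinned, these were 28.2% in the IL-27 matrix and 22.5% in the control matrix. Genes higher and lower in IL-27 tumours numbered 39 and 56 on thinned cells, 799 and 796 with a limit of 20 UMIs, and 37 and 55 with 200 UMIs, and 188 were higher with no UMIs of other lineages. Genes higher and lower than in ST2/Areg-positive Tregs in both matrices numbered 4 and 18 on thinned cells, 134 and 182 with 20 UMIs, and 6 and 23 with 200 UMIs. Of these, 13 were higher without cells with myeloid UMIs and 17 without the top cell of each gene, both alternatives chosen after seeing the data. Fewer genes reach 50 UMIs after thinning, and for the other changes the cause was not tested. List medians of IL-27 over control tumours moved by over 0.1 in log2 for 18 of 23 lists on thinned cells and 19 after division by the ratio in conventional cells. They moved for 12 lists with a limit of 200 UMIs, 11 with CPM averaged over cells and 9 with the length trend removed. The number was 9 without cells with myeloid UMIs, 9 with no UMIs of other lineages and 8 without the highest doublet scores. Some values of named genes moved by more than their counting interval, besides those that turned. They numbered 56 of 181 on thinned cells and 35 of 75 after division by the ratio in conventional cells. With no UMIs of other lineages they numbered 21 of 181, without the highest doublet scores 16 and with CPM averaged over cells 15. Without cells with myeloid UMIs they numbered 14 and without the top cell of each gene 13. Some named genes turned direction in log2 ratio of IL-27 over control tumours. Without the highest doublet scores these were Cd74 (0.21) and H2-Aa (1.60), and Il10 in ST2/Areg-negative over ST2/Areg-positive Tregs of IL-27 tumours was at -0.0068. Without UMIs of other lineages H2-Aa was at 0.12. Without cells with myeloid UMIs Cd74 was at 0.38, H2-Aa at 2.05, H2-Eb1 at 0.18 and Spp1 at -0.37. On thinned cells Cd28 was at -0.012, H2-Aa at 0.12, Klf6 at -0.50, Pgam1 at 0.63 and Socs1 at -0.26. Without the top cell H2-Aa was at 0.78, H2-Eb1 at 0.037 and Spp1 at -0.065. Divided by the ratio in conventional cells, Batf was at 0.34, Ccl22 at -2.43, Ccr8 at 1.45, Cd3g at 0.060, H2-T22 at 0.26, Sdhb at 0.28, Thy1 at 0.10, Tnfrsf4 at 0.35, Trbc1 at -0.16 and Zbp1 at 1.10.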

Other observations

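A T cell receptor beta V segment was counted in 48 ST2/Areg-negative Tregs of IL-27 tumours and 53 of control tumours. In IL-27 tumours 13 segments led at least 1 cell, and in control tumours 12. Trbv1 led 14 of the 48 cells of IL-27 tumours (29.2%, 16.95% to 44.1%) and 6 of the 53 cells of control tumours (11.3%). Trbv20 led 5 cells of IL-27 tumours and 18 of control tumours (34.0%, 21.5% to 48.3%). Trbv13-2 led 9 cells in each. In ST2/Areg-positive Tregs with a segment Trbv1 led 11.25% of cells in IL-27 tumours and 16.1% in control tumours. Trbv20 led 10% of them in IL-27 tumours and 16.1% in control tumours. In conventional CD4 T cells Trbv1 led 10.5% in IL-27 tumours and 7.5% in control tumours, and Trbv20 22.1% and 22.5%. Reads of near-identical segments can be assigned to the wrong copy, and neither clones nor mice can be told apart in these counts.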
